A study of Mus musculus with 4 samples.

Results

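The LIF receptor and STAT3 pathway was followed in mouse pluripotent cells and fibroblasts through 10 genes chosen by name: the ligand genes Lif and Il6, the receptor genes Lifr, Osmr and Il6st, the kinase genes Jak1 and Jak2, the transcription factor gene Stat3, and its targets Socs3 and Pim1. All 10 had a probe set of their own among the 19938 genes measured, 9 of them with 1 probe set and Socs3 with several, which were averaged. Total RNA was hybridised to 1-colour Affymetrix arrays, with 1 array for each of 4 cell samples. The samples were the induced pluripotent stem (iPS) cell lines 492B4 and 178B5, the embryonic stem (ES) cells v6.5, and mouse embryonic fibroblasts (MEF). The iPS lines and the MEF had a mixed background of DBA/2, C57BL/6 and 129S4, while the ES cells had an F1 background (129, C57BL/6). The MEF were grown in medium with serum. The 3 pluripotent lines were grown in ES cell medium with serum on mitomycin-C-treated SNL feeder cells that carried a puromycin-resistance gene, and LIF is not named among the components listed for that medium. Each line was measured once, and the method of reprogramming and the number of embryos behind the MEF are not stated in the labels. RNA of feeder cells in the lines' samples could not be told apart from that of the lines.

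Leukaemia inhibitory factor (LIF) is the cytokine that keeps mouse ES cells undifferentiated in culture. It binds the LIF receptor, which pairs with the shared subunit gp130, the product of Il6st, and the pair activates JAK kinases. These phosphorylate STAT3, which enters the nucleus and switches on target genes, and among them Socs3 encodes an inhibitor that acts back on the receptor. SNL feeders are a fibroblast line derived from STO cells and engineered to produce LIF.

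Socs3 is the classical feedback target of STAT3, so the sequence before its start was searched for the STAT-binding motif TTCNNNGAA, which reads the same on both strands. The windows ran from 250 bases before to 50 bases after an annotated start, from RefSeq on GRCm38.p6. Of 12 windows at the 10 genes 1 held the motif, at Socs3, and 8.30% of all 32851 windows held it. By gene that was 1 of 10, beside 9.55% of all genes with a window. The members thus lay near the share of all genes. The 250 bases before the start are shown for Socs3 and for the upstream start of Pim1, the other target gene, with the motif in capitals. The Socs3 stretch lies at chr11:117969367-117969616 on the minus strand, with the motif's first base 154 bases before the start, and the Pim1 stretch at chr17:29490535-29490784 on the plus strand.
Socs3: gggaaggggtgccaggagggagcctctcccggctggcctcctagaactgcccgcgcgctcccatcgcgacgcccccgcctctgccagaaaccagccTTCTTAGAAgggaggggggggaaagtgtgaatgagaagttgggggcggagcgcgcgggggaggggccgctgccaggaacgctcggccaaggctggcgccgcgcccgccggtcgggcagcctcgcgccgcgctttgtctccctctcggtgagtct
Pim1: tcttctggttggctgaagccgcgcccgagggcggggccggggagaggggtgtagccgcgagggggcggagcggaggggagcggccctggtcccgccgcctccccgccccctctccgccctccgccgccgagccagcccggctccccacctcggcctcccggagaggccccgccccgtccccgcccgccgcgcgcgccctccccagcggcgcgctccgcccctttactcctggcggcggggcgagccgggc
The Socs3 motif reads TTCTTAGAA. No motif was found in either window of Pim1, whose other window lies at chr17:29492835-29493134. A match is a run of letters, and no binding was measured here.

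The values are log2 signals in which each probe set had been centred on its median over the 4 arrays, with the log base taken as 2. They give differences between arrays and no expression levels, so no gene's level is set against another gene's. In bulk RNA, fewer expressing cells and less RNA per cell cannot be told apart. The labels were checked against marker genes: 10 of 10 pluripotency markers were called higher in the lines than in MEF (median 6.06 log2). Of 14 fibroblast markers 10 were called lower (median -3.40 log2), where 17.6% of all genes were called. Without iPS 178B5, 3 of the 14 were called, beside 6.81% of all genes. Macrophage markers gave 0 calls of 8, with a median of -0.30 log2, but they ran both ways: Cd68 stood at 2.34 log2 (limma adjusted p = 0.0873) and Lyz2 at -1.74 log2 (limma adjusted p = 0.129). In iPS minus MEF both were called, Cd68 at 2.83 log2 (limma adjusted p = 0.0066) and Lyz2 at -2.20 log2 (limma adjusted p = 0.00307).

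The first question was how the pathway differs between the pluripotent lines and MEF. The receptor genes Osmr and Il6st and both kinase genes fell in the lines, the target gene Pim1 rose, and Osmr showed by far the widest difference of the 10 genes. A gene was called at a limma adjusted p under 0.05, adjusted over all genes, and a mean difference of at least 1 log2. By that rule Osmr, Il6st, Jak1 and Jak2 were lower and Pim1 was higher. That is 5 of 10, where 17.6% of all genes were called. Over all genes 7.90% were higher and 9.71% lower, or 1576 and 1936 genes, and with the arrays centred on reference genes 1206 were higher and 2496 lower. Of the 11 reference genes, 4 were themselves called (36.4%), 2 higher and 2 lower, so that centring is no fixed standard. The median difference of the 10 genes was -0.92 log2, beside -0.10 log2 for all genes. All 3 lines lay on the same side of MEF for 10 of 10 genes, against 77.8% of all genes. They were all above MEF for 3 genes, against 30.1% of all genes, and all below MEF for 7, against 47.7%. The gap between MEF and the nearest line was wider than the range of the lines for 9 of 10 genes, against 44.9% of all genes. The error of the fit came from the 3 lines, so that the single MEF array had to be taken as equally variable. Without iPS 178B5, 2 of the 10 genes were called, Il6st and Pim1, where 6.81% of all genes were called.

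**Figure D1:**
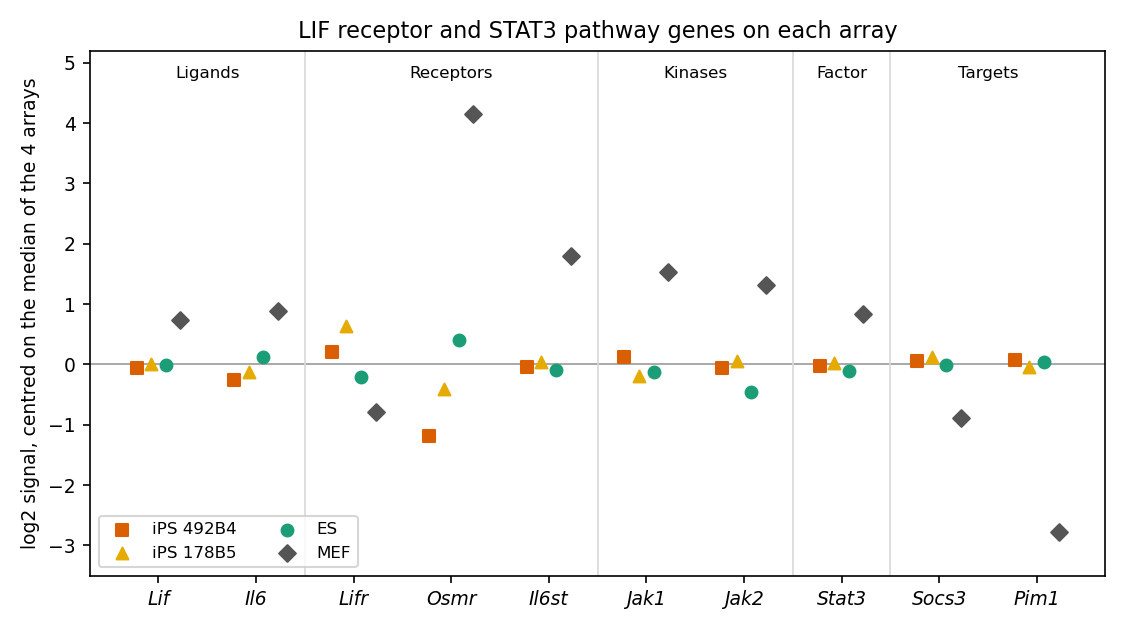
Signal of the 10 genes on each array, in log2 centred on the median of the 4 arrays, ordered by role; each point is 1 array. MEF stands apart from the 3 lines, above them for 7 genes and below them for Lifr, Socs3 and Pim1, with the widest gap at Osmr.

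Among the ligands, Lif stood at -0.05 in iPS 492B4, 0.01 in iPS 178B5 and -0.01 in ES, against 0.73 in MEF, in centred log2. The 3 lines spanned 0.06 log2, all below MEF. The mean difference was -0.75 ± 0.03 log2 (SD, n = 3 lines; limma adjusted p = 0.0247), which is under the minimum of 1 log2 for a call. Il6, which encodes interleukin-6, a cytokine that signals through the same gp130 subunit, stood at -0.26 in iPS 492B4, -0.12 in iPS 178B5 and 0.12 in ES, against 0.88 in MEF. All lines lay below MEF, and the difference of -0.97 ± 0.19 log2 also missed the fold minimum (limma adjusted p = 0.0338).

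The 3 receptor genes did not move alike. Osmr, which encodes the subunit that pairs with gp130 to bind oncostatin M, stood at -1.19 in iPS 492B4, -0.41 in iPS 178B5 and 0.41 in ES, against 4.14 in MEF. MEF was far above every line, and the lines themselves spread over 1.60 log2, the widest range of the 10 genes. Osmr fell by 4.54 log2 (SD 0.80, n = 3; limma adjusted p = 0.0146), a 23.3-fold lower signal. Of all genes, 0.201% lay at least as far below 0. The call was not kept without iPS 178B5 (-4.53 log2, adjusted p = 0.0545).

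Il6st, the gp130 gene, stood at -0.04 in iPS 492B4, 0.04 in iPS 178B5 and -0.10 in ES, against 1.80 in MEF. The lines lay within 0.14 log2 of each other and well below MEF. The fall of 1.83 log2 (SD 0.07, n = 3; limma adjusted p = 0.00596) corresponds to a 3.56-fold lower signal, and it kept its call under every alternative tried. Lifr, the LIF-binding subunit, ran the other way, at 0.20 in iPS 492B4, 0.64 in iPS 178B5 and -0.20 in ES, against -0.79 in MEF. Every line was above MEF, with iPS 178B5 highest and ES nearest to MEF. The mean difference was 1.00 ± 0.42 log2, and it did not pass the test over the 3 lines (limma adjusted p = 0.119). Within each array, the difference of Lifr from MEF exceeded that of Osmr by 6.33 log2 in iPS 492B4, 5.98 log2 in iPS 178B5 and 4.32 log2 in ES. It exceeded that of Il6st by 2.83 log2 in iPS 492B4, 3.19 log2 in iPS 178B5 and 2.48 log2 in ES. By value, the signals of the 2 LIF receptor subunits lay on opposite sides of MEF on every line's array, with Lifr only 0.59 log2 above MEF in ES.

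The genes with the pattern most like that of Il6st over the 3 differences from MEF were Phf2, Epha7 and Jcad, at root mean square distances of 0.02, 0.04 and 0.04 log2. For Lifr they were 6030458C11Rik, Ms4a10 and Foxa2, at 0.09, 0.11 and 0.12 log2. With 4 arrays, such likeness describes these arrays only.

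Both kinase genes fell. Jak1, a kinase bound to gp130, stood at 0.13 in iPS 492B4, -0.19 in iPS 178B5 and -0.13 in ES, against 1.54 in MEF. Every line was below MEF, and the fall was 1.60 log2 (SD 0.17, n = 3; limma adjusted p = 0.0105), a 3.03-fold lower signal. Jak2 stood at -0.06 in iPS 492B4, 0.06 in iPS 178B5 and -0.45 in ES, against 1.32 in MEF, with ES farthest from MEF. It fell by 1.47 log2 (SD 0.27, n = 3; limma adjusted p = 0.0207), a 2.77-fold lower signal. Without iPS 178B5 neither was called (adjusted p = 0.0528 for Jak1 and 0.0607 for Jak2).

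Stat3 itself stood at -0.02 in iPS 492B4, 0.02 in iPS 178B5 and -0.11 in ES, against 0.84 in MEF. The lines lay within 0.13 log2 of each other, below MEF by 0.82 to 0.95 log2. The mean difference was -0.88 ± 0.07 log2 (limma adjusted p = 0.0195), under the fold minimum, and with the arrays centred on reference genes it was -1.06 log2 and called (adjusted p = 0.0126).

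The target genes stood on the other side. Pim1, which encodes a serine/threonine kinase that promotes survival, stood at 0.08 in iPS 492B4, -0.05 in iPS 178B5 and 0.05 in ES, against -2.77 in MEF. The lines lay within 0.13 log2 of each other, all well above MEF. Pim1 rose by 2.80 ± 0.07 log2 (SD, n = 3; limma adjusted p = 0.00495), a 6.97-fold higher signal, and 1.01% of all genes lay at least as far above 0. This call was kept under every alternative tried. Socs3 stood at 0.05 in iPS 492B4, 0.13 in iPS 178B5 and -0.0049 in ES, against -0.88 in MEF. The lines were close together above MEF, and the mean of its 2 probe sets differed by 0.94 ± 0.07 log2 (limma adjusted p = 0.0167), under the fold minimum.

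The 2 Socs3 probe sets had the same direction and different sizes. The probe set annotated with 3 transcript records, 1 of them RefSeq, was above MEF by 1.52 log2 in iPS 492B4, 1.43 log2 in iPS 178B5 and 1.22 log2 in ES. The probe set annotated with 1 record was above MEF by 0.35, 0.60 and 0.54 log2 in the same lines. With the first probe set alone, Socs3 was called (1.39 log2, limma adjusted p = 0.0126). Against Stat3 within the same array, the difference of Socs3 from MEF was larger by 1.79 log2 in iPS 492B4, 1.83 log2 in iPS 178B5 and 1.83 log2 in ES. For Pim1 the excess over Stat3 was 3.71 log2 in iPS 492B4, 3.55 log2 in iPS 178B5 and 3.77 log2 in ES.

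The next question was whether the iPS lines and the ES line differed from MEF by the same amounts. A fit with 3 groups took its error from the 2 iPS lines and carried it over to the single ES and MEF arrays. Both comparisons use the same MEF array. For iPS against MEF 7 of 10 genes were called, 2 higher (Lifr and Pim1) and 5 lower (Osmr, Il6st, Jak1, Jak2 and Il6), where 21.1% of all genes were called, 9.94% higher and 11.2% lower. For ES against MEF the 5 genes of the first comparison were called, 1 higher and 4 lower, where 20.0% of all genes were called, 9.14% higher and 10.9% lower.

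Lifr differed from MEF by 1.21 log2 in iPS (SE 0.23, limma adjusted p = 0.0265) and by 0.59 log2 in ES (SE 0.27, limma adjusted p = 0.212). Il6 differed by -1.08 log2 in iPS (SE 0.15, limma adjusted p = 0.0123) and by -0.76 log2 in ES (SE 0.17, limma adjusted p = 0.0458, under the fold minimum). With equal array medians Il6 stood at -0.99 log2 in iPS and was not called. Osmr fell by 4.94 log2 in iPS (SE 0.36, limma adjusted p = 0.00379) and by 3.73 log2 in ES (SE 0.42, limma adjusted p = 0.0113). Pim1 rose by 2.79 log2 in iPS and by 2.82 log2 in ES, and Il6st fell by 1.80 log2 in iPS and by 1.90 log2 in ES.

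Tested directly, iPS minus ES, 0 of 10 genes were called by limma, where 0% of all genes were called. Over all genes that count depended on the scaling: 44 genes were called with equal array medians and 72 with the arrays centred on reference genes, with 0 of the 10 among them. At an unadjusted p under 0.05 there were 2 of 10, Osmr and Jak2, beside 15.4% of all genes. Osmr was 1.21 log2 lower in iPS (95% interval -2.22 to -0.20, limma adjusted p = 0.283) and Jak2 0.45 log2 higher (0.05 to 0.86, limma adjusted p = 0.296). Lifr was 0.63 log2 higher in iPS (95% interval -0.02 to 1.28, limma adjusted p = 0.335) and Il6 was lower by a difference of -0.31 log2 (-0.73 to 0.10, limma adjusted p = 0.412). For Lif the difference was -0.01 log2 (95% interval -0.40 to 0.38), for Pim1 -0.03 log2 (-0.44 to 0.38) and for Stat3 0.11 log2 (-0.27 to 0.49). For Il6st it was 0.10 log2 (-0.30 to 0.49), for Socs3 0.09 log2 (-0.30 to 0.48) and for Jak1 0.10 log2 (-0.44 to 0.64). The bounds of these 6 intervals reach at most 0.64 log2 in size. The median size of the difference was 0.11 log2 over the 10 genes and 0.19 log2 over all genes.

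**Figure D2:**
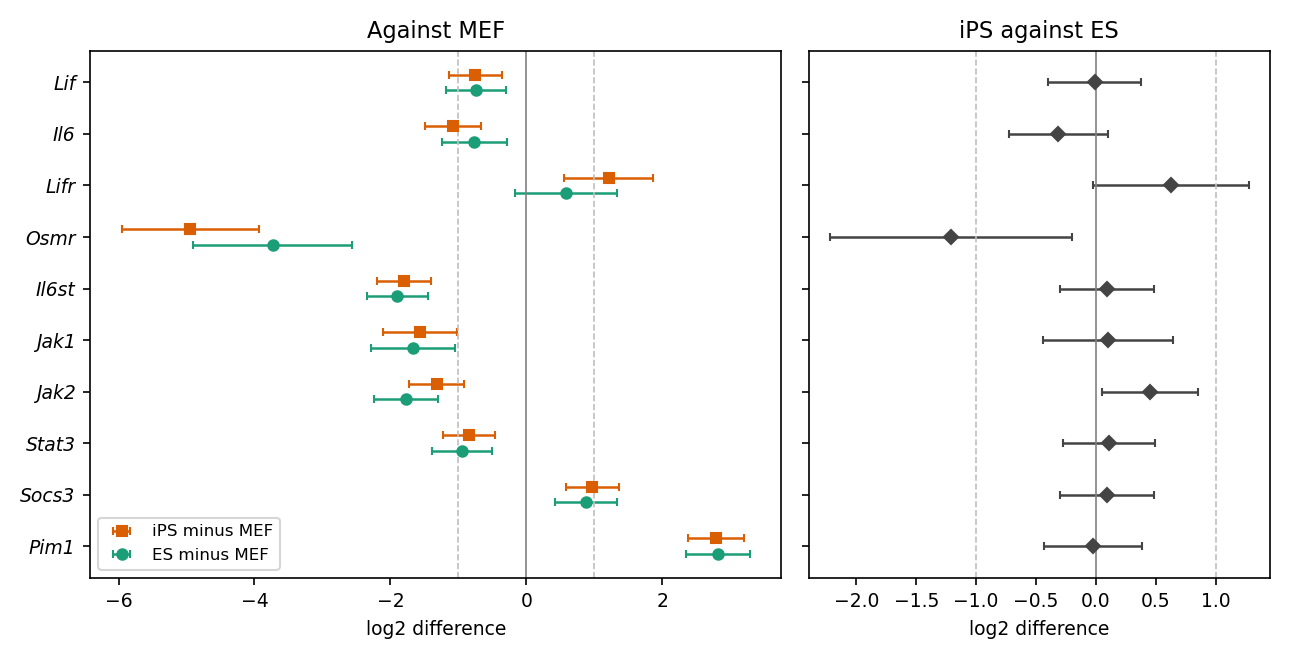
Differences of the 10 genes in log2, left for iPS minus MEF and ES minus MEF and right for iPS minus ES; bars are 95% intervals of the limma fit with 3 groups, and dashed lines mark 1 log2 either way. On the right the intervals of Osmr and Jak2 lie off 0, and no gene passes after adjustment over all genes.

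Markers of other cells moved with Osmr and Lifr among the lines. The median of 14 fibroblast markers was -4.34 log2 against MEF in iPS 492B4, -3.94 log2 in iPS 178B5 and -2.61 log2 in ES. Of the 14, 12 ranked ES first, iPS 178B5 next and iPS 492B4 last, the order of Osmr and Il6, and 30.8% of all genes had that order. All 14 were lower in iPS than in ES, by 0.13 to 3.47 log2. In limma's test of iPS minus ES 0 of the 14 were called, but Lox and Postn were with equal array medians, and Thy1 as well with the arrays centred on reference genes. The median of 8 primitive endoderm markers was 0.92 log2 in iPS 492B4, 1.65 log2 in iPS 178B5 and -0.12 log2 in ES. All 8 ranked iPS 178B5 first, iPS 492B4 next and ES last, the order of Lifr, Il6st, Jak2, Stat3 and Socs3, and 10.9% of all genes had that order. The lines spanned only 0.14 log2 for Il6st and 0.13 log2 each for Stat3 and Socs3, so the order of those genes rests on small differences. Gata6, a transcription factor of primitive endoderm, differed from MEF by 1.92 log2 in iPS 492B4, 2.58 log2 in iPS 178B5 and -0.82 log2 in ES. Dab2, of the same list, lay below MEF in every line, at -0.40, -0.15 and -1.32 log2 in that order. Of the 8 markers 0 were called for lines against MEF and 0 in iPS minus ES. For iPS against MEF 4 were called, all higher, beside 21.1% of all genes, and for ES against MEF 1 was higher and 2 lower, beside 20.0%. The part of these cells in the values of Osmr and Lifr was not tested.

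**Figure D3:**
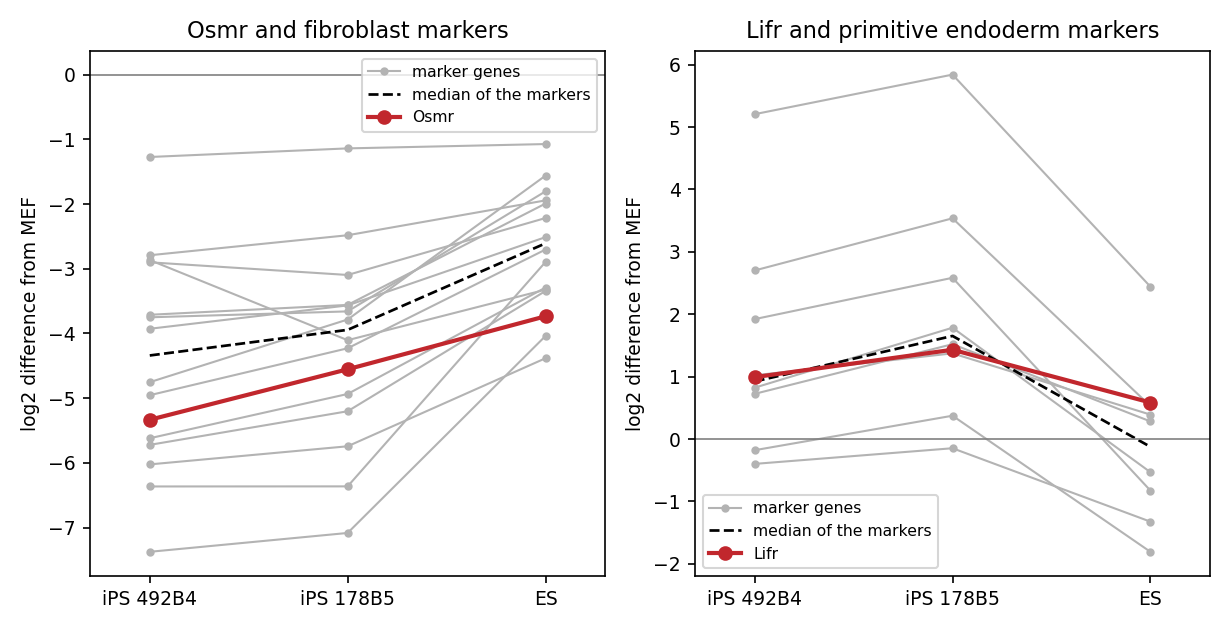
Difference from MEF in log2 in each line, for Osmr with 14 fibroblast markers (left) and Lifr with 8 primitive endoderm markers (right); grey lines are single markers and dashed lines their medians. Osmr and the fibroblast median are both nearest to MEF in ES, and Lifr and the primitive endoderm median are both highest in iPS 178B5.

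Between the 2 iPS lines, compared by value with no test, 0 of 10 genes differed by 1 log2 or more, and 0.612% of all genes did. Osmr differed most, at -0.78 log2 for iPS 492B4 minus iPS 178B5, a size that 1.75% of all genes reached. Lifr followed at -0.44 log2, reached by 9.61% of all genes, and Jak1 stood at 0.32 log2. The other 7 genes differed by at most 0.14 log2, and the median size was 0.12 log2 over the 10 genes and 0.14 log2 over all genes.

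The rest of the pathway was described through lists of genes around the 10, with the counts for lines against MEF read beside the 17.6% of all genes called, 7.90% higher and 9.71% lower. Of the other cytokines that signal through gp130, 1 of 6 measured was called, lower, a share of 16.7% beside 17.6% of all genes, and the list's median was -0.35 log2. That gene was Clcf1, which encodes a ligand of the ciliary neurotrophic factor receptor, and it fell by 2.75 log2 (SD 0.14, n = 3; limma adjusted p = 0.00548). Its differences from MEF were -2.91 log2 in iPS 492B4, -2.69 log2 in iPS 178B5 and -2.64 log2 in ES. Of 4 other co-receptors 1 was called (25.0%), Il6ra, the interleukin-6 receptor subunit, which fell by 1.12 log2 (limma adjusted p = 0.0312). The call on Il6ra was lost when iPS 178B5 (adjusted p = 0.116) or iPS 492B4 (adjusted p = 0.0562) was left out.

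Of 6 other JAK and STAT genes 1 was higher and 2 were lower (50.0% called, beside 17.6% of all genes), with a median of -0.63 log2. Stat4, a STAT best known from T cells and natural killer cells, rose by 4.03 ± 0.35 log2 (SD, n = 3; limma adjusted p = 0.00576). It was above MEF by 3.98 log2 in iPS 492B4, 4.41 log2 in iPS 178B5 and 3.72 log2 in ES. Stat6, the STAT of interleukin-4 signalling, fell by 1.81 log2 (limma adjusted p = 0.00667). Stat5a, which acts below prolactin and many cytokines, fell by 1.15 log2 (limma adjusted p = 0.0158), a call lost when iPS 178B5 was left out (adjusted p = 0.0785).

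Of 14 negative regulators 2 were called, both higher (14.3% called, beside 17.6% of all genes), with a median of 0.02 log2. The list's median was 0.21 log2 in iPS 492B4, 0.09 log2 in iPS 178B5 and -0.16 log2 in ES. Ptpn6, which encodes the phosphatase SHP1, rose by 1.69 log2 (limma adjusted p = 0.00842), and Pias2, a SUMO ligase that binds STATs, rose by 1.16 log2 (limma adjusted p = 0.0123). The call on Pias2 was lost when iPS 178B5 was left out (adjusted p = 0.0693) and with the arrays centred on reference genes (0.97 log2). The number called was 1 when iPS 178B5 was left out (7.14%, beside 6.81% of all genes). It was 4 (3 higher, 1 lower) when ES was left out (28.6%, beside 21.1% of all genes).

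Genes known to respond to LIF or STAT3 in ES cells were split. Of 14, 3 were higher and 2 lower (35.7% called, beside 17.6% of all genes), with a median of 0.17 log2. That median joined opposite directions, since by line it was -0.42 log2 in iPS 492B4, -0.18 log2 in iPS 178B5 and 0.63 log2 in ES. It was -0.36 log2 without ES and -0.02 log2 with the arrays centred on reference genes. In the fit with 3 groups, 3 were higher and 3 lower in iPS (42.9% called, beside 21.1% of all genes), and 6 were higher and 2 lower in ES (57.1% called, beside 20.0% of all genes). In iPS minus ES 0 of the 14 were called, and 1, Fos, was lower and called with equal array medians (-3.02 log2, limma adjusted p = 0.0408) and with the arrays centred on reference genes (-3.05 log2, limma adjusted p = 0.0311). Tfcp2l1, a transcription factor that carries the STAT3 signal in ES cells, rose by 4.77 log2, Klf5 by 1.81 log2 and Pim3, a relative of Pim1, by 1.72 log2. Bcl6, a transcriptional repressor, fell by 1.52 log2 (limma adjusted p = 0.00973), a call lost when iPS 178B5 was left out (-1.45 log2, adjusted p = 0.0517). Pim3 was as even among the lines as Pim1, at 1.72 log2 in iPS 492B4, 1.69 log2 in iPS 178B5 and 1.75 log2 in ES. Gbx2, a homeobox gene, was uneven, at 0.59 log2 in iPS 492B4, 1.46 log2 in iPS 178B5 and 2.04 log2 in ES (mean 1.36 log2, limma adjusted p = 0.175), and was called without iPS 492B4 (1.75 log2, adjusted p = 0.0442). Klf4 stood at 0.18 log2 (limma adjusted p = 0.652) and Myc at -0.65 log2 (limma adjusted p = 0.545).

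Of 10 genes of the branch through SHP2, RAS, ERK and PI3K, 1 was higher and 2 lower (30.0% called, beside 17.6% of all genes), with a median of -0.17 log2. With the arrays centred on reference genes 1 was higher and 4 lower (50.0% called, beside 18.6% of all genes). Gab1, a docking protein of the activated receptor, rose by 1.99 log2 (limma adjusted p = 0.00596). Pik3r1, a regulatory subunit of PI3K, fell by 1.75 log2 (limma adjusted p = 0.00596) and Akt1, a kinase below it, by 1.52 log2 (limma adjusted p = 0.0158), the last call lost when iPS 178B5 was left out (adjusted p = 0.0514). Ptpn11, which encodes SHP2, stood at -0.99 log2 (limma adjusted p = 0.0176), just under the fold minimum, and was called with the arrays centred on reference genes (-1.17 log2).

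**Figure D4:**
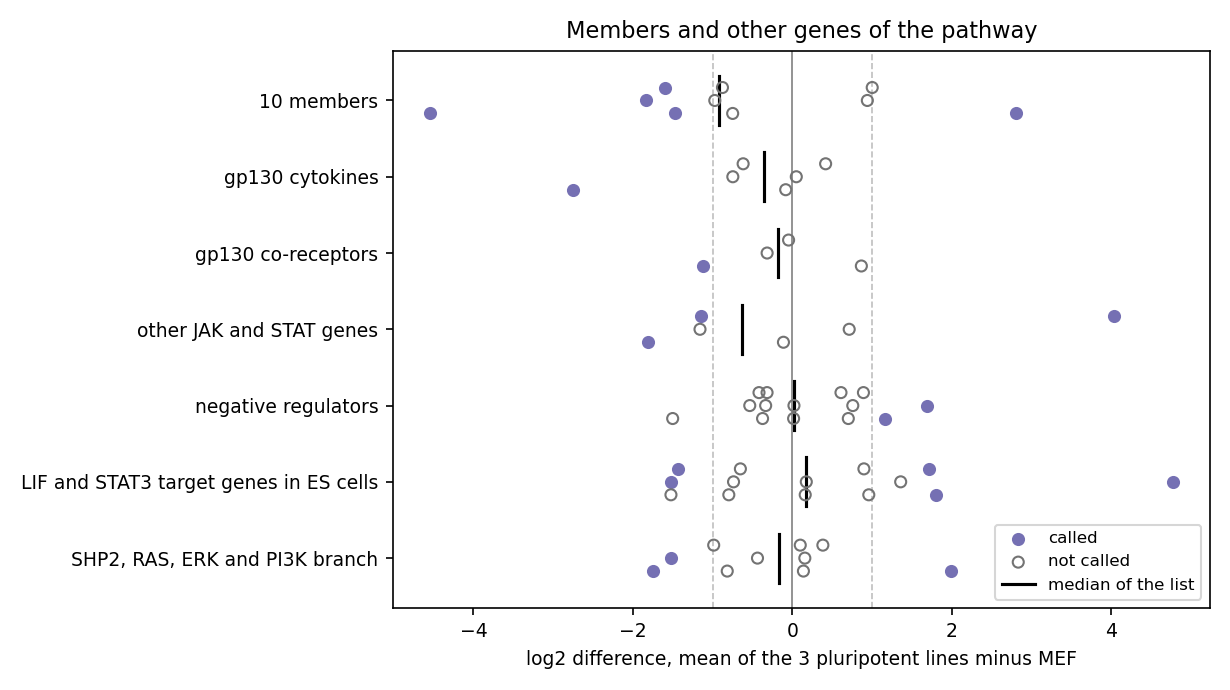
Difference of the mean of the 3 lines from MEF in log2 for each of the 10 members and each measured gene of the 6 other lists; filled points were called and black bars are medians, and the vertical offset within a row only separates points. Every list other than the cytokines, co-receptors and negative regulators holds called genes on both sides of 0.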

How the data were processed

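Expression was measured on 4 arrays, 1 per cell sample. Per the submitters' processing notes, the deposited log2 values came from GCRMA (version not stated), which corrects background, normalizes arrays and summarises probes. The base of the logarithm is an assumption, since no source states it. Each of the 28853 probe sets in the deposited table has a median of 0 over its 4 values (within 1e-06), so background and dim probes could not be assessed. Genes were named through the platform annotation: 21789 probe sets had 1 symbol, 1621 several and 5443 none. The gene IDs of 21698 matched the GRCm38.p6 gene table. Probe sets with 1 symbol were averaged per gene.

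Differences were tested with limma 3.58.1 (R 4.3.3), by lmFit and eBayes, and p-values were adjusted by Benjamini-Hochberg over 19938 genes. The fit of lines against MEF had 2 residual degrees of freedom, and the fit with 3 groups had 1. The fits were tested on simulated data. The replicates are separate lines with no repeat cultures, so a p-value reflects the variation among these samples alone, and the number of arrays limits precision.

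The 10 genes, the lists around them and the marker lists were chosen with earlier results of these data known. Named were all 10, the called genes of each list (at most 4, by size), and always Il6ra, Stat5a, Ptpn11, Tfcp2l1, Klf4, Gbx2 and Myc; a further gene of that rule is not reported here. Markers named one by one, and Fos, were chosen after their values were seen. Alternatives were other array centrings, probe set choice, robust moderation, no fold minimum and leaving out each line.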

Additional observations from a re-analysis of the deposited data

Results flagged for a closer look

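For 9 genes of the pathway and marker lists both iPS lines lay on the same side of MEF and ES on the opposite side. None of the 10 members was among them. The share of all genes with that split was not counted, so the number is not read as high or low. Every line lay on one side of MEF for 77.8% of all genes. The differences were taken by value, and in limma's test of iPS minus ES 0 genes were called (44 with equal array medians and 72 with reference gene centring), with 15.4% of all genes at an unadjusted p under 0.05. Fos, an immediate early gene, was lower in iPS than in ES, by a difference of -3.07 log2 (limma adjusted p = 0.0623), which was called under both of those centrings (adjusted p = 0.0408 and 0.0311). It stood at -0.76 log2 in iPS 492B4, -0.96 log2 in iPS 178B5 and 2.21 log2 in ES against MEF. Myc stood at -1.57 log2 in iPS 492B4, -0.52 log2 in iPS 178B5 and 0.14 log2 in ES, a difference of -1.19 log2. Gata6 differed by 3.08 log2 and Sox17, another primitive endoderm factor, by 1.83 log2. Pias1 differed by 0.69 log2, Sos1 by 0.42 log2, Aif1 by -0.28 log2, Il27 by -0.14 log2 and Ptpn1 by 0.078 log2. Fos, Pias1, Sos1, Aif1, Il27, Ptpn1 and Sox17 were named after their values were seen.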

How the results depend on the processing

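No paired analysis was possible because the arrays carry no replicate numbers in the labels and each line was measured once. For lines against MEF, 5 of 10 members were called, beside 17.6% of all genes. Leaving out 1 line gave 2 without iPS 178B5, beside 6.81% of all genes. It gave 5 without iPS 492B4, beside 16.0%, and 7 without ES, beside 21.1%. With no fold minimum 9 were called for lines against MEF, beside 23.8% of all genes, and 9 for ES against MEF, beside 26.3% of all genes, since Lif, Il6, Stat3 and Socs3 lie under 1 log2. The members' counts moved by no more than 1.5 times with equal array medians, reference gene centring, the widest probe set or robust moderation. Centring on reference genes put the median difference of all genes at -0.29 log2 and equal array medians put it at -0.03 log2, where it was -0.10 log2 as deposited. The reference genes were not steady, since 4 of 11 were called for lines against MEF. No member changed sign against MEF under these settings. Osmr, Jak1 and Jak2 lost their calls without iPS 178B5. With the fold minimum kept, some members not called as deposited gained a call. These were Lifr without ES (1.21 log2), and Il6 with reference gene centring (-1.16 log2) or without ES (-1.08 log2). Stat3 gained one with reference gene centring (-1.06 log2), and Socs3 with equal array medians (1.02 log2) or its widest probe set (1.39 log2). The fit without ES gave the same values and calls as iPS against MEF in the 3-group fit, so it is no separate check of that comparison. In iPS minus ES, Lif was 0.031 log2 with equal array medians and 0.0064 log2 with reference gene centring, and Pim1 0.014 log2 with equal array medians, each the opposite sign of a value near 0. The counts for the other lists under these settings, and the members' values for iPS and ES apart, were added after seeing the data. Without 1 iPS line the 3-group fit has no residual degrees of freedom and was not run. In iPS minus ES, 0 genes of all were called as deposited, 44 with equal array medians (0.221%) and 72 with reference gene centring (0.361%), with no member among them. With reference gene centring, calls split 1569 higher and 2809 lower for iPS against MEF (1981 and 2235 as deposited) and 1431 higher and 2850 lower for ES against MEF (1823 and 2167 as deposited). Over all genes 3512 were called, 1357 without iPS 178B5, 3188 without iPS 492B4 and 4216 without ES. Each fit without 1 line had 1 residual degree of freedom. No background level was available to limit dim probes.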
